A study of Mus musculus with 11 samples.

Results

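Kruppel-like factors (KLFs) were described in lymph node (LN) and spleen of mice that carried a BCL2 oncogene in B-lineage cells, and of wild-type mice. The set was Klf2, Klf3, Klf4, Klf6, Klf7, Klf10 and Klf13, found by gene symbol in the deposited table of RNA-seq values: all 7 of 7 names were present among 10885 genes, and all 7 were tested. KI mice had a BCL2 knock-in named Igk-BCL2 (mice 5 and 6), Tg mice had a BCL2 transgene named 3'RR-BCL2 (mice 3 and 4), and Wt mice were wild-type (mice 1 and 2). Igk is the immunoglobulin kappa light chain locus and 3'RR the enhancer region at the 3' end of the heavy chain locus, both active in B-lineage cells. All 6 mice, Wt included, had received sheep red blood cells intraperitoneally, 3 times over 3 months, and tissue was taken 1 month after the last injection. The labels give no ages. The 11 libraries were LN KI, LN Tg, LN Wt, spleen KI and spleen Wt with 2 mice each, and spleen Tg with mouse 4 alone. Spleen and LN libraries with the same number came from the same mouse. They were made from whole dissociated tissue, so no cell type had been sorted, and fewer cells of a type and less RNA per cell cannot be told apart.

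KLFs are zinc finger transcription factors that bind GC-rich and CACCC boxes. In lymphocytes, KLF2 holds resting T and B cells in quiescence and drives S1pr1, which lets them leave lymph nodes. Antigen receptor signals shut Klf2 off, and FOXO1 and the ERK5-MEF2 pathway turn it on. KLF4 restrains lymphocyte division and directs monocyte differentiation, while KLF3 is a repressor that works through CtBP corepressors. KLF6 and KLF10 are quickly induced genes, and KLF10 acts in transforming growth factor beta (TGF-beta) signalling. KLF13 was first described as an activator of Ccl5 in late activated T cells, and KLF7 is known best from growing neurons.

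Values are the authors' normalised signal, gene read counts divided by 1 factor per library, and differences are on the scale log2(signal + 1). Reads recovered from the values, summed over the table, ranged between 11128568 and 24110325 per library, and no single value of the 7 members rested on fewer than 219 reads (Klf10). "Fell" and "rose" are used for genes with a limma adjusted p under 0.05 (Benjamini-Hochberg over 10885 genes), and each difference is given with its standard error. P-values rest on the spread between these few mice, pooled over the 6 groups of both tissues and drawn toward that of genes of like signal. Groups held 2 mice or 1, and the main fit took the libraries of a mouse as independent. The mouse Bcl2 gene averaged 1455 ± 296 in LN KI, 2618 ± 782 in LN Tg and 2527 ± 267 in LN Wt (SD, n = 2 each), so its row does not mark the engineered mice, and the labels do not say whether reads of the inserted BCL2 enter it. Xist was 12314 in LN and 14513 in spleen of Wt mouse 1 and at most 8.0 in the other libraries, so 1 of the 2 Wt mice differed from all others in sex; the part of sex in the results was not tested. The T cell gene Cd3e and the B cell gene Ms4a1 were detected in all libraries, while stromal markers such as Pdpn and Col1a1 were not in the table. Summed signal of 8 plasma cell genes was 142958 and 147998 in LN KI, against 7447 and 11003 in LN Wt, and was 76122 and 124577 in spleen KI, against 22325 and 25175 in spleen Wt.

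The promoters of the 3 members with the widest range over the 11 libraries, Klf4, Klf6 and Klf2, are shown so that the results can be read beside the sequence that starts each gene. Each is the 250 bases before the transcription start in RefSeq (build GRCm38.p6), read 5′ to 3′ on the strand of the gene; 6 of the 7 members matched an entry there, Klf10 being the exception. Klf2 lies on the plus strand at chr8:72318812-72319061, Klf4 on the minus strand at chr4:55532476-55532725 and Klf6 on the plus strand at chr13:5861239-5861488. Capitals mark the string TGACG, the CCAAT box and the MEF2 element on either strand.
Klf2: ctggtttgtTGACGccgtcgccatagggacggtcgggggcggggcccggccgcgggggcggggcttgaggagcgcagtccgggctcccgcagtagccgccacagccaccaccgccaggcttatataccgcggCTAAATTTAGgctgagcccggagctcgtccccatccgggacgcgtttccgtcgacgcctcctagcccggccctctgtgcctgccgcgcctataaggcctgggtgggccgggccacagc
Klf4: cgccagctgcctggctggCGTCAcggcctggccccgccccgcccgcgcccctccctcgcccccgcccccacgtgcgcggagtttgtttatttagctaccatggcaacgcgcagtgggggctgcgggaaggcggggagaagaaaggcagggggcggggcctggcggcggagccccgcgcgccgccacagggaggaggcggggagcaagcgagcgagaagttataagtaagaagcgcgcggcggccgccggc
Klf6: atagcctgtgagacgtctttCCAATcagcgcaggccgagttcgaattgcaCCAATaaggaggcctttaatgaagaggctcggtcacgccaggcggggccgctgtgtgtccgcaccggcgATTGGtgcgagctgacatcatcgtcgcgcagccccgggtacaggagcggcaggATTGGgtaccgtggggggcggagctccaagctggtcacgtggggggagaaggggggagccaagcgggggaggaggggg
The 3 promoters differ in their letters. Klf2 holds the only MEF2 element among the 6 promoters, at positions -118 to -109 from the start; it is a palindrome found on both strands and counted once, and 2.92% of 32851 mouse promoters of this length hold one. Klf6 holds 4 CCAAT boxes, a letter string present in 33.8% of promoters, and Klf4 and Klf2 hold 1 TGACG each, present in 17.8%. The GC box GGGCGG, a string that KLF and SP proteins can bind and that overlaps none of the marked motifs, was in 6 of 6 member promoters and in 32.7% of all promoters. CACCC was in 4 of 6 members and in 52.0% of all promoters, and the CArG box was in 0 of 6 members and 1.47% of promoters. GC content was 71.2% for Klf2, 74.0% for Klf4 and 64.8% for Klf6, against a median of 52.4% over all promoters. These matches describe the letters only.

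**Figure D1:**
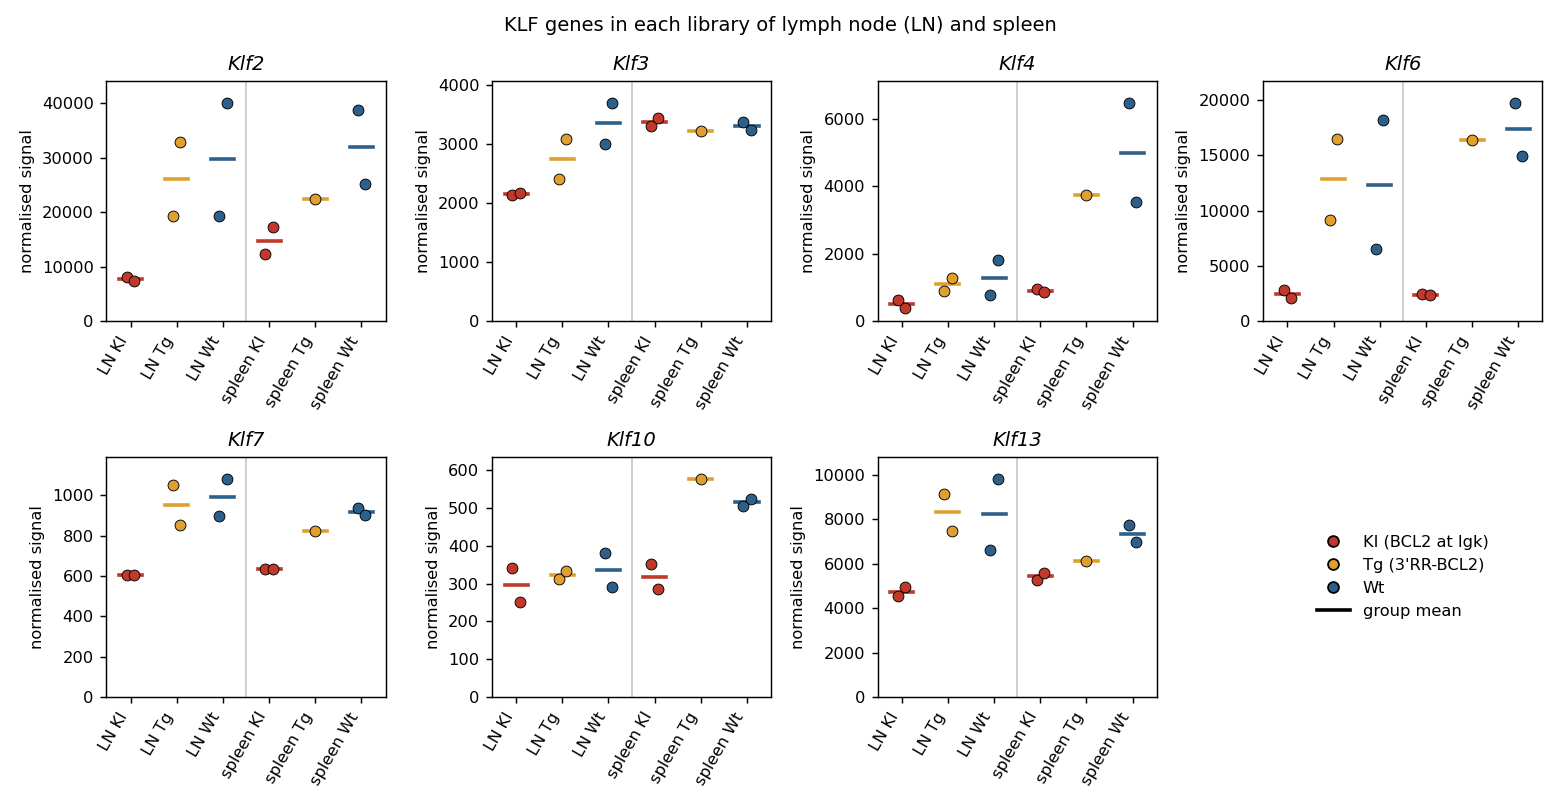
Normalised signal of the 7 KLF genes (linear y axes from 0) in each library, by tissue and genotype (points: libraries; bars: group means). In LN KI and spleen KI, Klf6 lies between 2087 and 2826, below every other library.

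KI was set against Wt in each tissue to ask how a BCL2 knock-in at the kappa locus goes with KLF transcripts. In LN, 5 of the 7 KLF genes fell in KI (Klf2, Klf3, Klf6, Klf7 and Klf13), 0 rose, and Klf4 and Klf10 did not pass the test. Among all genes 12.2% fell and 13.8% rose in that comparison, and 26.0% were called in either direction. The median difference of the 7 was -0.77, beside -0.02 over all genes. In spleen, 4 of 7 fell (Klf4, Klf6, Klf7 and Klf10) and 0 rose, beside 9.21% of all genes that fell, 7.63% that rose and 16.8% called in either direction, with a median of -0.70 beside 0.01 over all genes. Klf6 and Klf7 fell in both tissues. KI libraries lay wholly below Wt libraries for 6 of 7 members in LN, all but Klf10, where 34.8% of all genes did so, and for 6 of 7 in spleen, all but Klf3, where 31.9% did. These counts rest on few mice. The LN count was 2 without LN Wt mouse 2, 2 without LN KI mouse 5 and 3 without LN KI mouse 6. The spleen count was 0 without any single one of the 4 KI and Wt spleen libraries.

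Klf2, the quiescence and homing factor, stood at 8195 and 7381 in LN KI (mice 5 and 6), 19309 and 32814 in LN Tg (mice 3 and 4), and 19306 and 40083 in LN Wt (mice 1 and 2). Both LN KI libraries were below all other libraries. In LN, KI minus Wt was -1.84 ± 0.43 (limma adjusted p = 0.0241), a 3.58-fold lower level in KI. In spleen Klf2 was 12329 and 17302 in KI, 22510 in Tg mouse 4, and 38775 and 25218 in Wt. The spleen KI libraries were also below Wt, but the difference of -1.10 ± 0.43 did not pass (adjusted p = 0.138; 95% interval -2.15 to -0.05). The 2 LN Wt mice differed by 1.05 on the log2 scale, mouse 2 minus mouse 1, and without mouse 2 the LN difference was -1.31 with an adjusted p of 0.0639. The LN call was also lost without LN KI mouse 5 (adjusted p = 0.106), without LN KI mouse 6 (adjusted p = 0.116) and under quantile normalisation (adjusted p = 0.0501).

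Klf4, the other member tied to lymphocyte quiescence, had its highest levels in spleen, where it was 944 and 858 in KI, 3731 in Tg, and 6476 and 3525 in Wt. The spleen KI libraries stood apart below the Tg and Wt ones, and KI minus Wt was -2.41 ± 0.52 (limma adjusted p = 0.0316), a 5.31-fold lower level. In LN Klf4 was 643 and 398 in KI, 906 and 1285 in Tg, and 774 and 1821 in Wt. The LN KI libraries were lowest there too, but the difference of -1.23 ± 0.52 did not pass (adjusted p = 0.146; 95% interval -2.52 to 0.06). It was -0.61, and did not pass, without LN Wt mouse 2, and it passed without LN Wt mouse 1, at -1.85 (adjusted p = 0.0458). The spleen call was lost without Wt mouse 1, Wt mouse 2, KI mouse 5 or KI mouse 6, each fit leaving 1 library in a group. In those fits the spleen difference lay between -2.85 and -1.97. Monocytes express Klf4. The summed signal of 6 of 6 monocyte markers was 7542 and 6069 in spleen KI (mice 5 and 6), against 7982 and 13269 in spleen Wt (mice 1 and 2). Of these markers, 1 of 6 fell in spleen KI (F13a1, which encodes a clotting factor subunit, -1.47 ± 0.45, limma adjusted p = 0.0491) and 2 of 6 rose in LN KI (Ccr2 and Ly6c2). Over all genes, 9.21% fell in spleen KI and 13.8% rose in LN KI. The part of monocytes in the Klf4 result was not tested.

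Klf3 fell in LN, and its spleen difference did not pass the test. Its LN levels were 2136 and 2168 in KI, 2406 and 3083 in Tg, and 3004 and 3694 in Wt. KI libraries lay below those of Tg and of Wt, which overlapped each other, and KI minus Wt was -0.63 ± 0.14 (limma adjusted p = 0.00656), a 1.55-fold lower level. In spleen the libraries mixed, at 3295 and 3441 in KI, 3226 in Tg, and 3366 and 3237 in Wt, and the difference was 0.03 ± 0.14 (adjusted p = 0.903; 95% interval -0.27 to 0.33). Without LN Wt mouse 2 the LN difference was -0.48 (adjusted p = 0.0599).

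Klf6 had the largest KI difference of the 7 in each tissue. In LN it was 2826 and 2087 in KI, 9195 and 16516 in Tg, and 6502 and 18182 in Wt. In spleen it was 2436 and 2375 in KI, 16431 in Tg, and 19744 and 14948 in Wt. All 4 KI libraries lay in a narrow band below all 7 others, while LN Tg and LN Wt spread widely between their mice. KI minus Wt was -2.16 ± 0.54 in LN (limma adjusted p = 0.0341), a 4.48-fold lower level, and -2.84 ± 0.54 in spleen (adjusted p = 0.0215), a 7.14-fold lower level. The LN call was lost when LN libraries were fitted alone (adjusted p = 0.107), without LN KI mouse 5 (0.11) or LN KI mouse 6 (0.151), and without spleen Wt mouse 1 (0.0593), spleen Wt mouse 2 (0.0593), spleen KI mouse 5 (0.0614) or spleen KI mouse 6 (0.0614). A fit without a spleen library cannot move the LN value itself. Without LN Wt mouse 1 the LN difference was -2.90 and without LN Wt mouse 2 it was -1.42, and it passed in both fits. The spleen call was lost without Wt mouse 1, Wt mouse 2, KI mouse 5 or KI mouse 6, each fit leaving 1 library in a group. In those fits the spleen difference lay between -3.04 and -2.64.

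Klf10, the TGF-beta inducible member, fell in spleen KI. It was 351 and 286 in spleen KI, 578 in spleen Tg, and 507 and 523 in spleen Wt. The KI libraries were below all 3 others, and KI minus Wt was -0.70 ± 0.19 (limma adjusted p = 0.0313), a 1.62-fold lower level. In LN the genotypes overlapped, with 342 and 252 in KI, 311 and 333 in Tg, and 382 and 290 in Wt. The LN difference was -0.18 ± 0.19 (adjusted p = 0.535; 95% interval -0.60 to 0.24). The spleen call was lost without Wt mouse 1, Wt mouse 2, KI mouse 5 or KI mouse 6, each fit leaving 1 library in a group. In those fits the spleen difference lay between -0.85 and -0.55.

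Klf7 was 606 in each LN KI library, 1052 and 852 in LN Tg, and 900 and 1083 in LN Wt. It was 634 and 633 in spleen KI, 825 in spleen Tg, and 936 and 902 in spleen Wt. The 4 KI libraries were the lowest 4 of 11. KI minus Wt was -0.70 ± 0.13 in LN (limma adjusted p = 0.00346) and -0.54 ± 0.13 in spleen (adjusted p = 0.0209), 1.63-fold and 1.45-fold lower levels. The LN call of Klf7 was the only one of the 5 LN calls that passed with each of the 11 libraries left out in turn and under every other alternative run. Its spleen call was lost without Wt mouse 1, Wt mouse 2, KI mouse 5 or KI mouse 6, each fit leaving 1 library in a group. In those fits the spleen difference lay between -0.56 and -0.51.

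Klf13 was 4530 and 4950 in LN KI, 9133 and 7467 in LN Tg, and 6629 and 9825 in LN Wt. The LN KI libraries lay below all others, and KI minus Wt was -0.77 ± 0.17 (limma adjusted p = 0.00866), a 1.70-fold lower level. In spleen it was 5274 and 5587 in KI, 6095 in Tg, and 7717 and 6950 in Wt. The spleen libraries of KI and Wt did not overlap, but the difference of -0.43 ± 0.17 did not pass (adjusted p = 0.112; 95% interval -0.82 to -0.05). It passed when spleen libraries were fitted alone (adjusted p = 0.0206), without LN Wt mouse 1 (0.0469) and without LN Wt mouse 2 (0.0461). The LN call was lost without LN Wt mouse 2, at -0.49 (adjusted p = 0.0625), and without LN KI mouse 5 (0.0653).

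**Figure D2:**
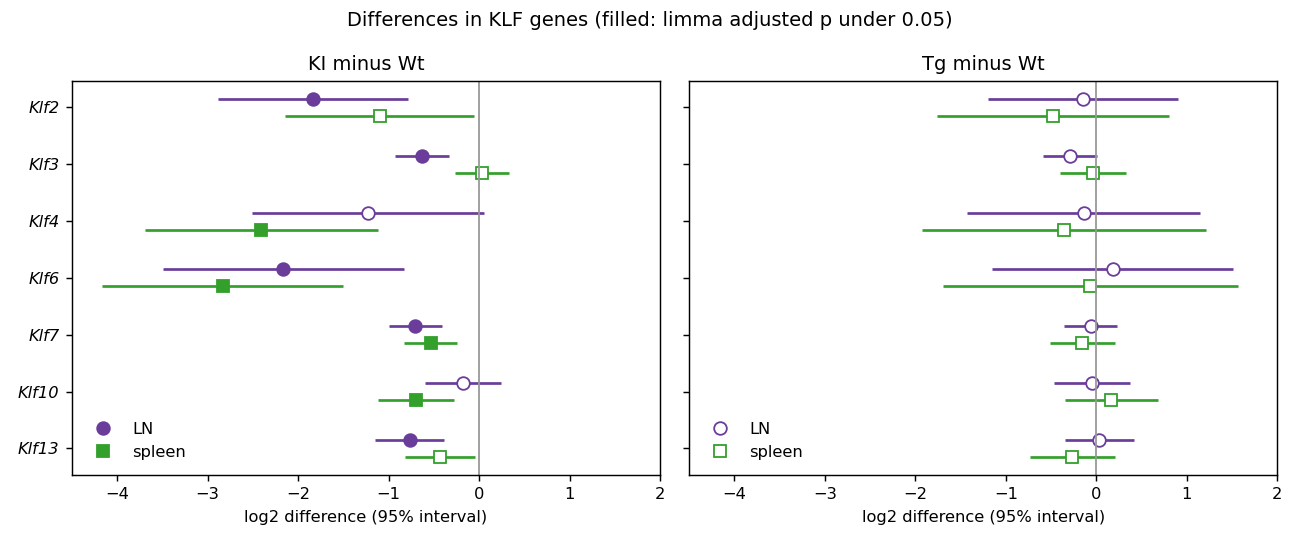
Log2 differences of the 7 KLF genes, KI minus Wt (left) and Tg minus Wt (right), in LN (circles) and spleen (squares), with 95% intervals; filled symbols have a limma adjusted p under 0.05. The KI differences reach -2.84 (Klf6, spleen), and no Tg difference is filled.

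Tg was compared with Wt to ask the same of the transgene, and no KLF gene passed the test. In LN, 0 of 7 were called, 0 passed even at an unadjusted p under 0.05, and the differences lay between -0.29 (Klf3) and 0.18 (Klf6). Over all genes limma called 0.0% (0 genes; 532, or 4.89%, at an unadjusted p under 0.05), edgeR 0 and DESeq2 28. The Tg and Wt libraries overlapped for all 7 members in LN, where 14.6% of all genes lay wholly lower and 12.7% wholly higher in Tg. In spleen 0 of 7 were called, with 0 of 7 at an unadjusted p under 0.05, and values lay between -0.47 (Klf2) and 0.17 (Klf10); over all genes limma called 0.0% (0 genes; 164, or 1.51%, at an unadjusted p under 0.05). The lone spleen Tg library lay wholly below the Wt ones for 4 of 7 members (Klf2, Klf3, Klf7 and Klf13) and wholly above for Klf10, where 32.1% of all genes lay below and 32.3% above. The intervals were wide for the members that vary most between mice: for Klf6 the 95% interval was -1.15 to 1.51 in LN and -1.70 to 1.57 in spleen, the spleen value resting on 1 Tg library assumed to vary like the other groups. For Klf7 it was -0.35 to 0.23 in LN.

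The 2 engineered genotypes were compared with each other in LN. Against Tg, 4 of 7 KLF genes fell in KI, where 12.2% of all genes fell and 26.7% were called in either direction. KI minus Tg was -1.69 ± 0.43 for Klf2 (limma adjusted p = 0.0321), -2.34 ± 0.54 for Klf6 (0.0264), -0.64 ± 0.13 for Klf7 (0.00596) and -0.80 ± 0.17 for Klf13 (0.00767). Klf3 (-0.34 ± 0.14, adjusted p = 0.0874), Klf4 (-1.09 ± 0.52, 0.182) and Klf10 (-0.13 ± 0.19, 0.654) did not pass. This comparison shares its KI libraries with KI minus Wt, so the values stand side by side and not as separate support. The Klf2 call was lost under quantile normalisation (limma adjusted p = 0.0573), and the Klf6 call when LN libraries were fitted alone (0.0898). The count was 2 without LN Tg mouse 4, 1 without LN KI mouse 5, 2 without LN KI mouse 6 and 2 with 1 variance per genotype.

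Ordered by group mean, the members had different orders. For Klf2 the order from high to low was spleen Wt, LN Wt, LN Tg, spleen Tg, spleen KI and LN KI, with means between 31997 ± 9586 in spleen Wt and 7788 ± 576 in LN KI (SD, n = 2 each). Neighbours from spleen Wt down to spleen Tg overlapped. For Klf4 spleen Wt (5001 ± 2087) and spleen Tg led, and LN Wt, LN Tg and spleen KI overlapped with their neighbours above LN KI (520 ± 174). For Klf6, the 4 Wt and Tg groups overlapped in a row, and LN KI (2457 ± 523) and spleen KI (2406 ± 43.3) overlapped at the bottom. For Klf13 and Klf7 LN Tg, LN Wt and spleen Wt overlapped at the top, and LN KI was lowest. Klf10 had spleen Tg (578) and spleen Wt (515 ± 11.4) above all LN groups, and Klf3 was the only member with spleen KI (3368 ± 104) at the top, overlapping LN Wt (3349 ± 488).

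Tissue was compared within Wt and within KI mice. In Wt mice 0 of 7 KLF genes differed between LN and spleen, beside 9.38% of all genes called, though 2 of 7 had an unadjusted p under 0.05, beside 23.3% of all genes. These were Klf4, with LN minus spleen of -2.01 ± 0.52 (limma adjusted p = 0.076), and Klf10, with -0.63 ± 0.19 (adjusted p = 0.0676); both had LN libraries wholly below spleen ones, as 27.0% of all genes did. With each mouse as a block, Klf10 passed at -0.63 (adjusted p = 0.019). Klf4 passed without LN Wt mouse 2, at -2.62 (adjusted p = 0.0273), and was -1.39, without passing, when LN Wt mouse 1 was left out. Both passed with immunoglobulin and haemoglobin genes left out (adjusted p = 0.0459 each). In KI mice 1 of 7 differed, beside 9.27% of all genes: Klf3 was lower in LN, at -0.65 ± 0.14 (adjusted p = 0.0135). That call was lost without spleen KI mouse 5 (0.0571), LN KI mouse 5 (0.072), spleen KI mouse 6 (0.114) or LN KI mouse 6 (0.0673). Klf2, at -0.91 ± 0.43 (adjusted p = 0.308), did not pass in KI mice.

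Whether the KI effect differed between tissues was tested as an interaction, LN minus spleen. No member was called (0 of 7), beside 0.955% of all genes, and 1 of 7 had an unadjusted p under 0.05, beside 14.6% of all genes. That 1 was Klf3, at -0.66 ± 0.19 (limma adjusted p = 0.124), which passed with each mouse as a block (adjusted p = 0.0421). The value for Klf4 was 1.18 ± 0.73 (adjusted p = 0.544; 95% interval -0.64 to 3.00) and for Klf10 0.52 ± 0.27 (adjusted p = 0.420). For the members other than Klf3, a call made in 1 tissue and missed in the other is not shown to differ between the tissues in either fit, and for Klf3 it differed only with the mouse block. For the Tg effect 0 of 7 members were called beside 0.0% of all genes (at an unadjusted p under 0.05, 0 members and 200 genes, or 1.84%).

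Lymphocyte homing and quiescence genes listed around KLF2 and KLF4 were read next. The list was not limited to known targets, and it counts the activation antigen gene Cd69 among those that fell in each tissue. Of 12 listed, 10 were in the table; in LN KI 6 fell and 1 rose, and in spleen KI 4 fell and 2 rose. The LN median was -0.82, beside -0.02 over all genes, of which 12.2% fell and 13.8% rose. The spleen median was -0.49, beside 0.01 over all genes, of which 9.21% fell and 7.63% rose. S1pr1, the receptor that carries lymphocytes out of lymph nodes, was 3898 and 4545 in LN KI, against 8405 and 12617 in LN Wt, and fell by 1.29 ± 0.25 (limma adjusted p = 0.00618). In spleen KI S1pr1 differed by -0.72 ± 0.25 (adjusted p = 0.0817). Ccr7, the chemokine receptor that guides lymphocytes to T cell zones, was 2406 and 2987 in LN KI, against 7761 and 16618 in LN Wt. KI minus Wt for Ccr7 was -2.08 ± 0.36 in LN (adjusted p = 0.00682) and -1.71 ± 0.36 in spleen (adjusted p = 0.0222). Il7r, which encodes the interleukin 7 receptor of resting T cells, fell by 1.16 ± 0.19 in LN and by 1.12 ± 0.19 in spleen (adjusted p = 0.00193 and 0.00474). The integrin gene Itgb7 fell in LN by 1.04 ± 0.13 (adjusted p = 0.000342) and was at -0.25 ± 0.13 in spleen (adjusted p = 0.204). The gene Cd69, an early activation antigen that keeps S1PR1 off the cell surface, was 700 and 1211 in LN KI, against 2772 and 4928 in LN Wt, and 607 and 406 in spleen KI, against 4340 and 3760 in spleen Wt. It fell 4.01-fold in LN (adjusted p = 0.017), and KI minus Wt was -3.02 ± 0.42 in spleen (adjusted p = 0.00753); in LN both Cd69 and S1pr1 fell. Thbd, the thrombomodulin gene that KLF2 activates in endothelium, moved opposite to Klf2. It was 718 and 702 in LN KI, against 11.3 and 17.5 in LN Wt, and rose by 5.56 ± 0.52 in LN (adjusted p = 0.000179) and by 2.31 ± 0.52 in spleen (adjusted p = 0.0189). S1pr4, another sphingosine phosphate receptor, rose in spleen KI by 0.72 ± 0.13 (adjusted p = 0.00626) and was at -0.16 ± 0.13 in LN (adjusted p = 0.413).

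**Figure D3:**
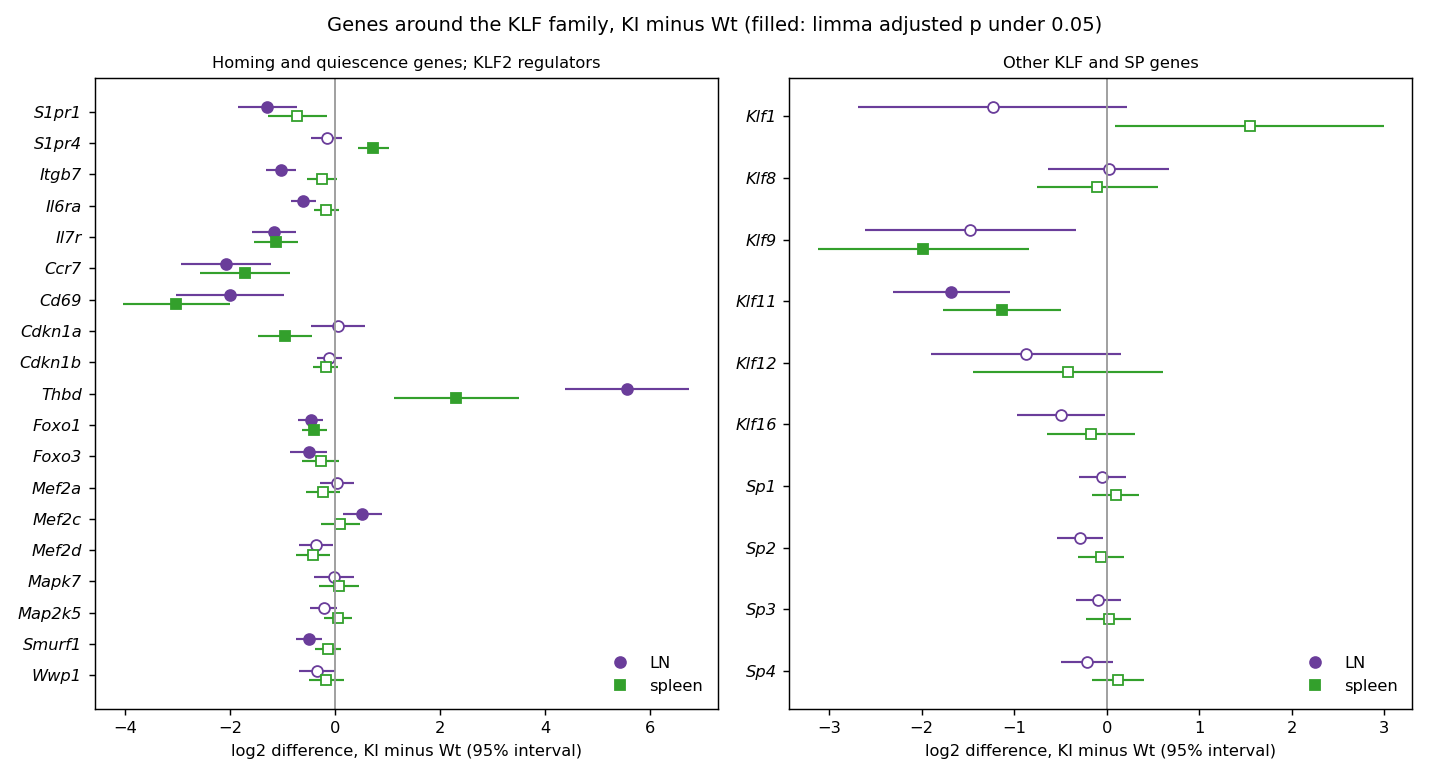
KI minus Wt log2 differences with 95% intervals in LN (circles) and spleen (squares) for homing and quiescence genes with KLF2 regulators (left) and other KLF and SP genes (right); filled symbols have a limma adjusted p under 0.05. In LN, 6 of the 10 homing and quiescence genes fell, and Thbd lies at 5.56.

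Regulators of KLF2 were read in the same way. Of 9 listed and measured, 3 fell and 1 rose in LN KI, beside 12.2% and 13.8% of all genes. In spleen KI 1 fell and 0 rose, beside 9.21% and 7.63% of all genes. The share that rose in LN and the share that fell in spleen were near those of all genes. Medians were -0.35 in LN and -0.17 in spleen, beside -0.02 and 0.01 over all genes. Foxo1, which activates Klf2, was 4292 and 3940 in LN KI, against 5683 and 5690 in LN Wt, and fell by 0.47 ± 0.11 (limma adjusted p = 0.0096); in spleen it fell by 0.40 ± 0.11 (adjusted p = 0.0312). Its relative Foxo3 fell in LN by 0.51 ± 0.16 (adjusted p = 0.0356), as did Smurf1, a ubiquitin ligase that degrades KLF2 protein, by 0.49 ± 0.11 (adjusted p = 0.00827). Mef2c, a MEF2 factor of B cells, rose in LN by 0.52 ± 0.17 (adjusted p = 0.041). Among cofactors, 1 of 9 measured fell in each tissue and 0 rose, a share near the 12.2% and 9.21% of all genes that fell in LN and spleen. That 1 was Fhl3, which binds KLF3, at -0.92 ± 0.20 in LN (adjusted p = 0.00709) and -0.75 ± 0.20 in spleen (adjusted p = 0.0276).

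The TGF-beta genes around KLF10 showed 4 of 10 lower and 1 of 10 higher in LN KI, beside 12.2% and 13.8% of all genes. In spleen KI 3 of 10 were lower and 0 higher, beside 9.21% and 7.63% of all genes. Medians were -0.21 in LN and -0.11 in spleen, beside -0.02 and 0.01 over all genes. Smad7, the inhibitory SMAD, was 1838 and 1899 in LN KI, against 4736 and 6694 in LN Wt, and 1212 and 1325 in spleen KI, against 3963 and 3794 in spleen Wt. It fell by 1.59 ± 0.15 in LN (limma adjusted p = 8.32e-05) and by 1.61 ± 0.15 in spleen (adjusted p = 0.000234). Smad3, a signal-carrying SMAD, fell by 0.80 ± 0.16 in LN and 0.65 ± 0.16 in spleen (adjusted p = 0.00465 and 0.0209), and the receptor gene Tgfbr1 rose in LN by 0.76 ± 0.19 (adjusted p = 0.016). Of the genes reported under KLF3 and KLF13, 3 of 4 were in the table, and 1 of 3 fell in each tissue. That 1 was Ccl5, the chemokine gene under KLF13, at -0.90 ± 0.16 in LN and -0.58 ± 0.16 in spleen (adjusted p = 0.00237 and 0.0326).

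Of the 19 other KLF and SP genes listed, 10 were in the table, and 1 of 10 fell in LN KI and 2 of 10 fell in spleen KI, with 0 higher in either tissue. Of all genes, 12.2% fell in LN and 9.21% in spleen, so the LN share was near the background. The medians were -0.39 in LN and -0.08 in spleen, beside -0.02 and 0.01 over all genes. Klf11, a TGF-beta inducible relative of Klf10, was 202 and 169 in LN KI, against 498 and 707 in LN Wt, and fell by 1.68 ± 0.28 (limma adjusted p = 0.00288). In spleen it fell by 1.13 ± 0.28 (adjusted p = 0.0261). Klf9, a glucocorticoid-induced member, fell in spleen by 1.98 ± 0.49 (adjusted p = 0.0318) and was at -1.47 ± 0.49 in LN (adjusted p = 0.0633). Sp1 and Sp3, the broadly expressed SP factors, were at -0.05 ± 0.12 and -0.09 ± 0.11 in LN, and at 0.10 ± 0.12 and 0.02 ± 0.11 in spleen. Klf1, the erythroid member, rested on few reads in some LN libraries and did not pass in either tissue, at -1.23 ± 0.66 in LN (adjusted p = 0.201) and 1.55 ± 0.66 in spleen (adjusted p = 0.132).

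Immediate early genes are switched on within minutes by receptor signals and by tissue dissociation, and Klf4, Klf6 and Klf10 are known to be induced as quickly. Of 20 listed, none of them a KLF gene, 10 fell in LN KI, beside 12.2% of all genes. In spleen KI 16 of the 20 fell, beside 9.21% of all genes, and 0 of the 20 rose in either tissue. Their summed signal was 88879 and 65126 in LN KI (mice 5 and 6), 89734 and 156366 in LN Tg (mice 3 and 4), and 107989 and 145586 in LN Wt (mice 1 and 2). In spleen it was 74446 and 74359 in KI, 195075 in Tg, and 226449 and 181017 in Wt. LN Wt mouse 1 and LN Tg mouse 3 were the low libraries of their groups for this sum and also for Klf2, Klf3, Klf4 and Klf6. The other members did not follow in both groups. Klf10 was higher in LN Wt mouse 1 than in LN Wt mouse 2 (382 and 290). Klf7 (1052 and 852) and Klf13 (9133 and 7467) were higher in LN Tg mouse 3 than in LN Tg mouse 4. Across the 11 libraries, Pearson's r of log2 values with this sum was 0.923 for Klf6, 0.920 for Klf4, 0.805 for Klf2, 0.782 for Klf10, 0.645 for Klf7, 0.524 for Klf13 and 0.523 for Klf3. These points share mice and genotypes, so the values describe likeness only, and the part of immediate early signal in the KLF differences was not tested.

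Resting T cells express Klf2. In LN KI 10 of 12 T cell genes fell, beside 12.2% of all genes. In spleen KI 9 of the 12 T cell genes fell, beside 9.21% of all genes, and 0 of the 12 rose in either tissue. Their medians were -0.99 and -1.04. Their summed signal was 32178 and 41069 in LN KI, 66101 and 66141 in LN Tg, and 75690 and 73101 in LN Wt. In spleen it was 18024 and 18935 in KI, 34684 in Tg, and 37490 and 38120 in Wt. Cd3e, the defining T cell gene, was not at 0 in any library and fell by 0.91 ± 0.12 in LN KI (limma adjusted p = 0.000395). Pearson's r with the T cell sum was 0.736 for Klf7, 0.677 for Klf13, 0.571 for Klf6, 0.426 for Klf2, 0.014 for Klf4, -0.089 for Klf10 and -0.105 for Klf3. Both tissues were pooled for these values, and the T cell sum was higher in LN than in spleen within each genotype. The libraries also share mice and genotypes, so the values describe likeness only. The part of T cell content in the KLF differences was not tested.

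**Figure D4:**
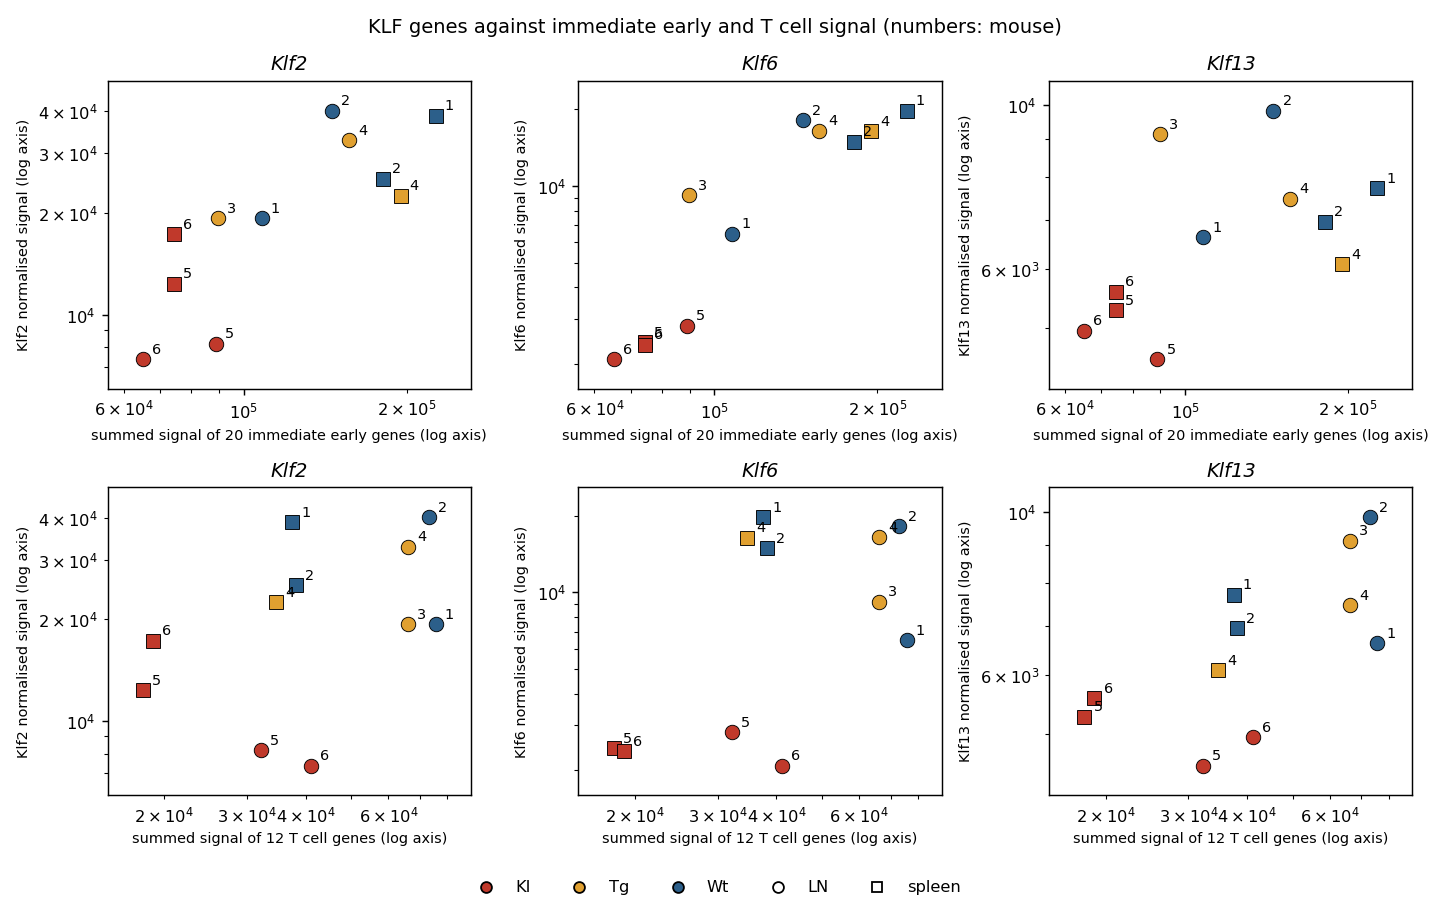
Normalised signal of Klf2, Klf6 and Klf13 (log axes) against the summed signal of 20 immediate early genes (top) and 12 T cell genes (bottom), 1 point per library with its mouse number, colour for genotype and shape for tissue. The 4 KI libraries lie at the low end for Klf6 in both rows. Along the T cell sum, LN lies above spleen within each genotype, but LN KI mouse 5 (32178) lies below spleen Tg and spleen Wt.

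Other cell markers were read as well. Beside them, 12.2% of all genes fell and 13.8% rose in LN KI, and 9.21% fell and 7.63% rose in spleen KI. Of 8 plasma cell genes 7 rose in LN KI and 0 fell, and in spleen KI 6 rose and 1 fell; of 8 germinal centre B cell genes 7 rose in LN and 3 in spleen, with 0 lower. Of 8 B cell genes 3 rose and 2 fell in LN KI, and 2 rose and 1 fell in spleen KI. Of 10 macrophage genes 6 fell in LN KI and 0 were called in spleen KI, and their summed signal lay between 1148 and 1231 in LN KI, against 1771 to 2514 in LN Wt. Summed neutrophil signal in spleen was 1351 and 4477 in KI (mice 5 and 6), against 4197 and 37166 in Wt (mice 1 and 2). Summed erythroid signal there was 12832 and 1676 in KI, against 520 and 429 in Wt. Endothelial sums there overlapped, at 3279 and 3597 in KI and 3848 and 3438 in Wt. The part of these markers in the KLF differences was not tested.

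The genes most like each member in pattern over the 11 libraries were found by Pearson's r of log2(signal + 1). Slc26a10 was among the nearest for both Klf7 and Klf13. The values are the highest of many, over libraries that share mice and genotypes, so they describe likeness only. Klf6 was most like Junb (0.987), an immediate early AP-1 gene, Hexim1 (0.987) and Ppp1r15a (0.985), a stress-induced phosphatase subunit gene. Klf2 was most like Nfkb1 (0.976), Zmiz2 (0.965) and Traf3 (0.961). Klf13 was most like S1pr1 (0.983), Slc26a10 (0.968) and Iars2 (0.964), and Klf7 like Slc26a10 (0.985), Frat2 (0.979) and Thap12 (0.977). For Klf4 the nearest were Atp6v0c (0.972), Trps1 (0.970) and Mtx1 (0.970). Klf10 and Klf3 had lower leading values, with Zfand5 at 0.930 for Klf10 and Osbpl5 at 0.933 for Klf3. Between members, r was 0.954 for Klf7 with Klf13 and 0.891 for Klf2 with Klf6, and it was 0.088 for Klf10 with Klf13.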

How the data were processed

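RNA-seq of 11 libraries from spleen and LN of 6 mice was analysed. Per the submitters' processing notes, the tools were STAR 2.5, featureCounts, Subread 1.4.6, FastQC 0.11.5 and DESeq2 1.26.0, and the build was GRCm39; roles and order are not stated there. For 10885 genes the authors deposited a normalised signal; the values themselves show it to be read counts over a factor that is constant within a library. No gene had a highest value under 109.3. In each library 100% of values were whole multiples of 1 step (tolerance 0.05 reads), from which reads were recovered. Recovered reads over the table were 11128568 to 21067988 in LN libraries and 18994455 to 24110325 in spleen libraries; precision is limited mainly by 2 mice a group. Columns were matched to samples by name, and groups came from the labels.

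Group means of the 6 groups were fitted to log2(signal + 1) over all 11 libraries with limma-trend 3.58.1 (R 4.3.3; 5 residual degrees of freedom; Benjamini-Hochberg adjustment over all genes; threshold 0.05), for 9 comparisons. Scripts were tested on simulated data. The numbers in the labels name the mouse, which pairs its spleen and LN; genotypes were compared between different mice. Alternatives were pseudocounts of 0.1 and 5, a mean of at least 100, removal of immunoglobulin and haemoglobin genes with rescaling, quantile normalisation, 1 variance per genotype, fits within a tissue, each library left out, the mouse as a random or fixed block, and, in LN, edgeR 4.0.16 and DESeq2 1.42.0 on recovered reads. Named genes were the members, Bcl2, all other KLF and SP genes in the table, up to 6 genes a list by p in LN and up to 4 by p in spleen, and the 3 genes most like each member; Pdpn and Col1a1 fall outside that rule. Of the genes chosen for the lists, 2 were left out of them and are not reported here. The members and lists were chosen with earlier results of these data known. RefSeq promoters are of build GRCm38.p6, another build than the authors', and served for sequence only.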

Additional observations from a re-analysis of the deposited data

How the results depend on the processing

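Of 1225 recomputed member values, 1128 kept direction and side of the threshold, 45 lost the call, 10 gained one and 42 changed sign, 0 of these with a call in either fit.

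With DESeq2 on recovered reads, Tg minus Wt in LN called 28 genes. With 1 variance per genotype, KI minus Tg in LN called 2 members and the KI effect between tissues 288 genes. With the mouse as a fixed replicate block, LN minus spleen in Wt called 1 member and 1572 genes, the KI effect 1 member and 586 genes, and the Tg effect 6 genes; Klf7 was -0.056 for the Tg effect. The random replicate block (consensus correlation 0.0168) changed no member call. Over all genes, however, the log2 difference between the 2 mice of a genotype correlated between LN and spleen at 0.40 in Wt and 0.90 in KI. Without immunoglobulin and haemoglobin genes, LN minus spleen in Wt called 2 members and Klf3 was -0.033; the median of all genes in KI minus Wt became 0.11 in LN, with 2066 genes higher and 879 lower against 1502 and 1331 in the deposited scaling, and 0.10 in spleen, with 1427 and 816 against 830 and 1003. Under quantile normalisation the LN split was 1237 and 1420, Klf3 was -0.027 for LN minus spleen in Wt and Klf6 -0.017 for LN minus spleen in KI. The causes were not tested.

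Leaving out 1 library at a time, members called ranged 2 to 6 for KI minus Wt in LN, 0 to 5 in spleen, 1 to 5 for KI minus Tg in LN, 0 to 1 for LN minus spleen in Wt and 0 to 1 in KI. Genes called ranged 1465 to 3274, 624 to 2346, 1341 to 2900, 375 to 1232 and 301 to 1180 for the same comparisons, 0 to 13 for Tg minus Wt in LN, 4 to 159 for the KI effect and 0 to 3 for the Tg effect. Among uncalled values, KI minus Wt ranged -0.40 to 0.041 for Klf10 in LN and -0.0026 to 0.060 for Klf3 in spleen. KI minus Tg for Klf10 ranged -0.35 to 0.090. Tg minus Wt in LN ranged -0.67 to 0.38 for Klf2, -0.75 to 0.48 for Klf4, -0.56 to 0.92 for Klf6, -0.21 to 0.091 for Klf7, -0.25 to 0.15 for Klf10 and -0.25 to 0.32 for Klf13. In spleen it ranged -0.80 to 0.082 for Klf4 and -0.27 to 0.14 for Klf6. LN minus spleen in Wt ranged -0.70 to 0.36 for Klf2, -0.14 to 0.16 for Klf3, -1.40 to 0.082 for Klf6, -0.030 to 0.24 for Klf7 and -0.14 to 0.42 for Klf13. In KI it ranged -0.20 to 0.23 for Klf6 and -0.33 to 0.11 for Klf10. The KI effect of Klf6 ranged -0.068 to 1.42. The Tg effect ranged -0.20 to 0.86 for Klf2, -0.40 to 0.84 for Klf4, -0.50 to 0.99 for Klf6 and -0.056 to 0.25 for Klf7.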
